A study of Gallus gallus with 10 samples.

Results

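The genes described here are 56 of the 24881 chicken genes in the table, chosen because their read counts were high in both ectopic optic tectum (iTeO) and natural cerebral cortex (NCC) and low in natural optic tectum (TeO). Levels are in CPM, the reads of a gene per 1000000 reads on chicken genes of that library. A gene was taken when its iTeO mean and its NCC mean were each at least 2 CPM and each more than 2 times the TeO mean, when the ratio of the iTeO mean to the NCC mean lay between 0.5 and 2, and when its highest TeO value lay below the lowest of the 7 iTeO and NCC values. Since the levels in all 3 tissues chose the genes, those levels and the differences between the tissues are given as descriptions. Where calls of a fit across all genes are printed for them, nothing is read from the calls.

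The optic tectum is the visual centre of the avian midbrain and forms from the dorsal midbrain under the influence of the isthmic organizer at the boundary with the hindbrain. The cerebral cortex, or pallium, forms from the telencephalon, the most anterior part of the forebrain. The diencephalon lies between these regions, and its caudal part can take on a midbrain fate when it meets signals of the organizer.

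RNA of 10 tissue libraries was sequenced, all from chicken embryos labelled as wild type, from eggs of the Hy-Line W36 strain. The 4 iTeO libraries held ectopic tectum that formed in the diencephalon of embryos implanted with human neuroepithelial cells (NECs) made by the 3d protocol, in 2 libraries from embryonic stem cells, named iTeO (ES), and in 2 from induced pluripotent stem cells, named iTeO (iPS). The other libraries were 3 of TeO and 3 of NCC, the optic tectum and the cerebral cortex in their natural place. The labels do not say whether a library held 1 embryo or several, nor the age of the embryos, nor whether the natural tissues came from implanted embryos, so p-values measure the spread between these libraries, part of which may be technical. In bulk tissue, fewer cells of a type and less RNA per cell cannot be told apart.

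Each library had from 7809002 to 11615474 reads on chicken genes. The share of human genes in all counts was 0.371% in the first and 0.129% in the second iTeO (ES) library, 0.299% and 0.124% in the first and second iTeO (iPS) library, and 0.123% to 0.137% in the natural tissues. A set of 21 chicken genes, noticed after their values were seen, was switched as a block between libraries of the same tissue. These genes were taken for at most 3 reads in a TeO library and more than 5 CPM in another. The split within TeO was thus set by the choice. Their summed level was 463 and 484 CPM in iTeO (ES), 405 and 441 CPM in TeO replicates 2 and 3 and 396 CPM in NCC replicate 3, and between 0.354 and 3.19 CPM in the other 5 libraries, both iTeO (iPS) libraries among them. None of these 21 genes could be among the 56, since in each of them a TeO library was above the low NCC libraries. In iTeO this split and the kind of implanted cell cannot be told apart. The genes are listed by Ensembl identifier only. A symbol was found here for 0 of the 24881 identifiers, so marker genes of tectum, cortex or other cell types, the roles of the genes and their positions in the genome were not analysed here, and the labelled tissues were not checked against their markers.

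Few genes had this profile. Of the 24881 chicken genes, 11638 had at least 2 CPM in iTeO and in NCC. Only 85 of these were also more than 2 times the TeO mean in both tissues. The ratio of iTeO to NCC was below 0.5 in 19 of the 85 and above 2 in 1, which left 65. In 9 of the 65 a TeO library reached the lowest iTeO or NCC library, which left the 56. Of all genes tested, 12% met this last condition, and the 56 were 0.4% of the genes tested. All 56 passed the filter on low counts, as they had to with their levels in iTeO and NCC.

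**Figure D1:**
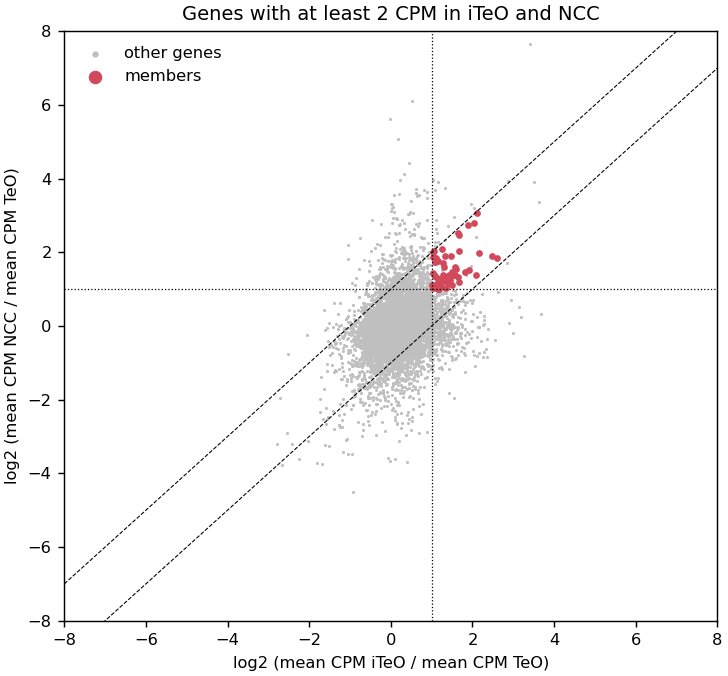
Log2 ratio of the iTeO mean to the TeO mean (x axis) against the log2 ratio of the NCC mean to the TeO mean (y axis), in CPM, for the 11638 chicken genes with at least 2 CPM in iTeO and NCC, 1 point per gene. Dotted lines mark 2 times the TeO mean and dashed lines the limits of 0.5 and 2 for the iTeO/NCC ratio. The 56 chosen genes, drawn larger and in red, lie within these lines by construction and reach 6.02 times the TeO mean in iTeO and 8.42 times in NCC.

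The 5 other profiles of this form, counted with the same floor, fold, ratio and overlap limits, were of unequal size. A level high in iTeO and TeO and low in NCC was found in 547 genes, and a level high in NCC alone in 392. A level high in iTeO alone was found in 419 genes. The reverse of the profile described here, high in TeO and low in both iTeO and NCC, was found in 47 genes, and a level high in TeO and NCC and low in iTeO in 41. These counts rest on raw CPM, in which the median log2 ratio of iTeO to TeO over all genes tested was 0.21 and that of iTeO to NCC was 0.23. After scaling with the factors of the trimmed mean of M-values (TMM), which were 1.07 to 1.10 in iTeO and 0.931 to 0.978 in TeO and NCC, 29 genes had the profile, 27 of them among the 56. The reverse profile then had 85 genes, so the order of the profile and its reverse turned with the scaling. The other profiles had 454 (NCC low), 525 (NCC high), 282 (iTeO high) and 93 genes (iTeO low) after this scaling.

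Several of the 56 genes stood close to a limit. The lower of the iTeO and NCC means was under 2.1 times the TeO mean in 11 of them. The last gene inside the fold limit had 2.003 times the TeO mean, with means of 107 CPM in iTeO, 116 in NCC and 53.5 in TeO, and the first gene outside had 1.998 times, with 92.2, 75.4 and 37.7 CPM. At the level floor, the lowest gene inside had 2.16 CPM in iTeO, 3.20 in NCC and 0.861 in TeO, and the next gene outside had 1.76, 1.83 and 0.506 CPM. At the lower ratio limit, the gene inside had an iTeO/NCC ratio of 0.509 (25.1 and 49.4 CPM) and the gene outside 0.499 (27.2 and 54.5 CPM). The smallest gap between the lowest iTeO or NCC library and the highest TeO library was 1.017 times among the genes taken, and the next gene outside had 0.984 times. The highest iTeO/NCC ratio among the 56 was 1.68, below the upper ratio limit, and the ratio of the gene above that limit was not examined.

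Most of the 56 genes had few reads. Their mean level ranged from 2.16 to 404 CPM in iTeO, around a median of 8.27, from 2.51 to 404 CPM in NCC, around a median of 8.54, and from 0.776 to 149 CPM in TeO, around a median of 2.94. The mean of iTeO and NCC was at least 100 CPM in 9 genes, between 10 and 100 CPM in 15 and below 10 CPM in 32, and the 9 held 78.4% of the summed level. These levels are reads per gene, not corrected for gene length, so they do not rank the genes by abundance of their transcripts. Counts ran from 4 reads for the least counted gene in a TeO library to 5121 reads, and 20 of the 56 had fewer than 30 reads in every TeO library. The exact 95% Poisson intervals of the highest TeO library and the lowest iTeO or NCC library, which cover counting error only, overlapped in 28 of the 56 genes and did not overlap in the other 28. The choice used these same values, and the share over all genes was not computed. Overlap depends on the number of reads and on the gap between the compared libraries, so the 2 counts do not measure depth alone. They describe the 56 genes only.

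The iTeO mean was between 2.003 and 6.02 times the TeO mean, with a median of 2.495, and was at least 3 times in 15 genes. The NCC mean was between 2.01 and 8.42 times the TeO mean, with a median of 2.63, and was at least 3 times in 22 genes. The iTeO/NCC ratio ran from 0.509 to 1.68 with a median of 0.97. The iTeO mean was the lower one in 30 genes and the higher one in 26. These ratios rest on raw CPM. In a fit with TMM scaling, iTeO was the higher one in 10 of the 56.

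**Figure D2:**
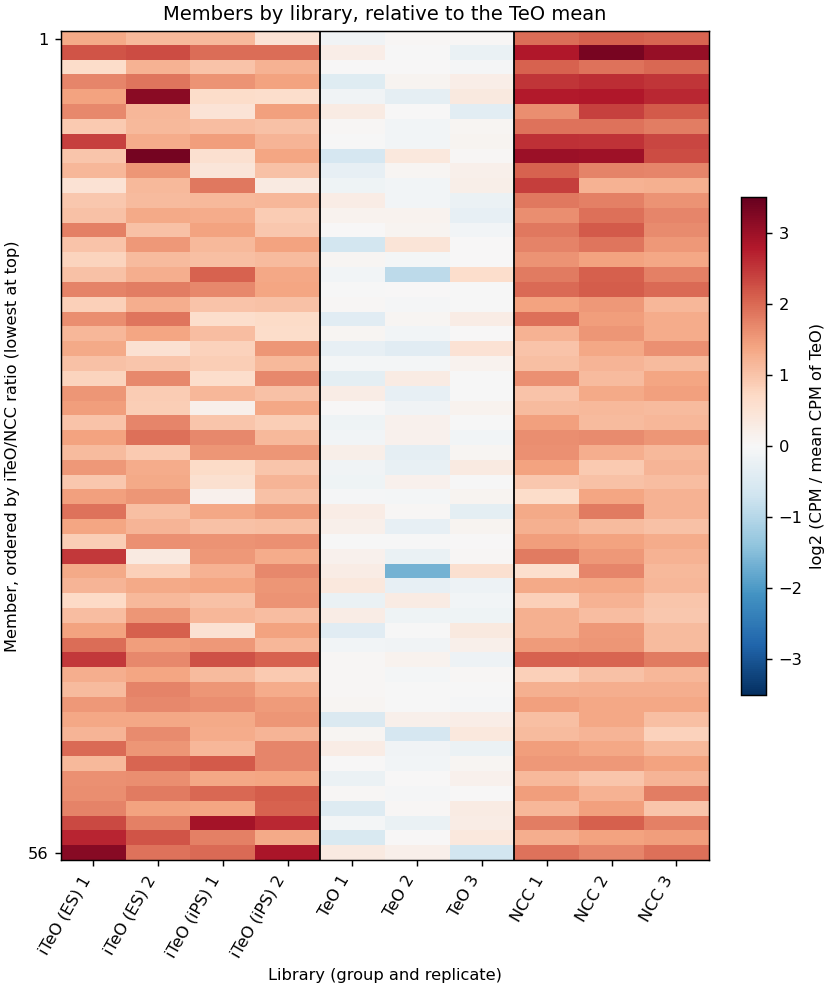
Level of each of the 56 genes (rows) in the 10 libraries (columns), as log2 of the CPM over the mean CPM of the 3 TeO libraries (colour). Genes are ordered by their iTeO/NCC ratio, from 0.509 at the top to 1.68 at the bottom. The 4 iTeO columns differ from each other more than the 3 NCC columns do (median coefficient of variation 22.3% and 12.04%), and in some rows near the top a single iTeO (ES) library is darker than the other iTeO libraries.

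Summed over the 56 genes, the share of chicken counts was 0.214% and 0.270% in iTeO (ES) replicates 1 and 2 and 0.257% and 0.245% in iTeO (iPS) replicates 1 and 2. It was 0.0981%, 0.0931% and 0.0982% in TeO replicates 1 to 3, and 0.281%, 0.280% and 0.258% in NCC replicates 1 to 3. The iTeO libraries lay between TeO and NCC or among the NCC libraries on this scale, and iTeO (ES) replicate 1 was the lowest of the 7. With TMM factors the shares were 0.195% to 0.245% in iTeO, 0.0989% to 0.105% in TeO and 0.276% to 0.298% in NCC, and all 4 iTeO libraries lay between TeO and NCC. Without TMM factors the means were 0.246% ± 0.0237 in iTeO (SD, n = 4), 0.0964% ± 0.00292 in TeO (SD, n = 3) and 0.273% ± 0.0129 in NCC (SD, n = 3). On that raw scale iTeO held 2.55 times and NCC 2.83 times the TeO share. With TMM factors the means were 0.225% in iTeO, 0.101% in TeO and 0.290% in NCC.

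The 56 genes varied more between libraries of a tissue than other genes at the same floor did. Their median coefficient of variation was 22.3% over the 4 iTeO libraries, 15.7% in TeO and 12.04% in NCC, against 12.03%, 7.93% and 8.30% over all 11638 genes. They also had fewer reads than these genes, and the median spread that counting alone gives them was 11.6% (iTeO), 17.4% (TeO) and 10.2% (NCC), against 6.25%, 6.09% and 6.17%. In iTeO the spread stood above counting error in the 56 genes and in all genes alike, and in TeO the median spread of the 56 was below their counting spread. The highest coefficient of variation of a single gene was 102% in iTeO, 60.4% in TeO and 51.2% in NCC.

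The quasi-likelihood fit of edgeR, with TMM scaling over 13999 chicken genes, gave each of the 56 genes a log2 fold change. Its SE was derived from the test statistic. Between NCC and TeO all 56 were called higher in NCC at a Benjamini-Hochberg adjusted p under 0.05 and a log2 fold change above 1, against 5.93% of all genes tested. Their log2 fold changes ran from 1.02 to 3.08 with a median of 1.41. Between iTeO and TeO 32 of the 56 were called higher in iTeO, against 4.04% of all genes tested. The log2 fold changes between iTeO and TeO ran from 0.80 to 2.38 with a median of 1.12, and 21 of the 56 were at 1 or below in the fit, although the raw means differed by more than 2 times. Both counts follow from the choice of the genes.

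Between iTeO and NCC 7 of the 56 were called, all of them lower in iTeO, against 7.05% of all genes tested that were called lower in iTeO. Their log2 fold changes ran from -1.19 to -1.02 after TMM scaling, close to the lower ratio limit of the choice. The limits on the iTeO/NCC ratio bounded these differences in both directions, and the count is a description of where the genes fell between them. The median log2 fold change between iTeO and NCC was -0.27 over the 56 genes and 0.01 over all genes tested, and it was positive in 10 of the 56.

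ENSGALG00000036034 had the largest ratio of the lower of the iTeO and NCC means to the TeO mean. It had 8.17 and 8.59 CPM in iTeO (ES), 6.92 and 6.84 CPM in iTeO (iPS), 2.07, 1.74 and 1.51 CPM in TeO and 12.5, 17.8 and 14.6 CPM in NCC. The 3 tissues did not overlap, with iTeO between TeO and NCC. The means were 7.63 ± 0.883 CPM in iTeO (SD, n = 4), 1.78 ± 0.279 CPM in TeO (SD, n = 3) and 15.0 ± 2.67 CPM in NCC (SD, n = 3). These levels rest on 54 to 86 reads per iTeO library, 17 to 24 per TeO library and 145 to 201 per NCC library. In the fit with edgeR, which describes the chosen contrasts, the log2 fold change was 1.90 (SE 0.20) between iTeO and TeO, 3.08 (SE 0.20) between NCC and TeO, the highest of the 56, and -1.18 (SE 0.16) between iTeO and NCC. Between iTeO (ES) and iTeO (iPS) it was 0.27 (SE 0.22, adjusted p of edgeR = 0.776), which did not pass the test.

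ENSGALG00000045426 had the highest mean of the iTeO and NCC levels. It had 273 and 449 CPM in iTeO (ES), 442 and 451 CPM in iTeO (iPS), 148, 148 and 151 CPM in TeO and 415, 397 and 366 CPM in NCC. In 3 of the 4 iTeO libraries the level was above all 3 NCC libraries, and in iTeO (ES) replicate 1 it was between TeO and NCC. The means were 403.5 ± 87.2 CPM in iTeO (SD, n = 4), 149 ± 1.92 CPM in TeO (SD, n = 3) and 393 ± 25.1 CPM in NCC (SD, n = 3). The log2 fold change was 1.23 (SE 0.16) between iTeO and TeO and 1.41 (SE 0.17) between NCC and TeO. Between iTeO and NCC it was -0.18 (SE 0.15) after scaling, with the raw means in the opposite order. The difference between iTeO (ES) and iTeO (iPS) was -0.32 (SE 0.17, adjusted p of edgeR = 0.625). Without iTeO (ES) replicate 1 it was -0.0071 and without iTeO (ES) replicate 2 it was -0.72, each with a single iTeO (ES) library left. Over the alternatives that kept both libraries of each kind, the adjusted p ran from 0.594 to 0.993 by edgeR and was 0.740 by DESeq2.

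**Figure D3:**
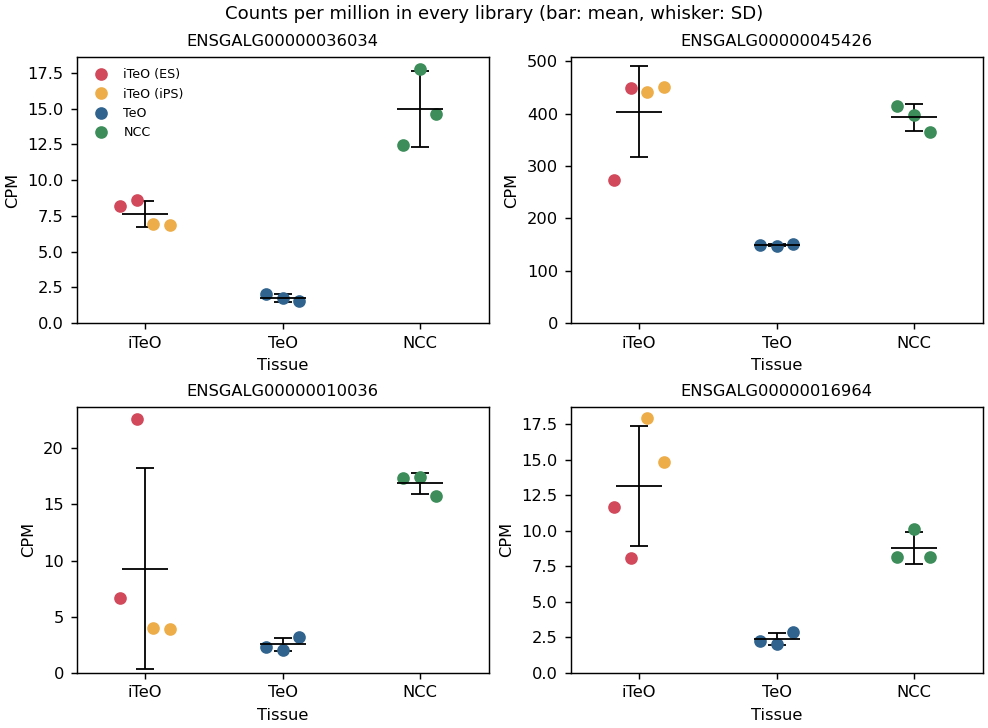
CPM (y axis, from 0) of the 4 genes given by identifier in iTeO, TeO and NCC (x axis), 1 point per library, with the mean (bar) and the SD (whisker) of each tissue. In all 4 panels the TeO points lie below the others, and for ENSGALG00000010036 the iTeO mean is carried by 1 library at 22.6 CPM, with the other 3 at 6.65 CPM or less.

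The kind of implanted cell was not used in the choice, and this difference within iTeO was tested. The iTeO values themselves were used, since every iTeO library had to lie above TeO. This bounds how far the kinds can differ in these genes, so the test is not free of the choice. None of the 56 genes was called between the 2 kinds by edgeR, while 2 of 13999 genes (0.0143%) passed, with iTeO (ES) the higher kind in both. At an unadjusted p under 0.05 there were 11 of the 56, against 9.18% of all genes tested, and DESeq2 called 1 of the 56. The log2 fold change over the 56 genes had a median of 0.19, with a range from -0.74 to 1.87 and 36 positive values, while the median over all genes tested was 0.01. Both iTeO (ES) libraries were above both iTeO (iPS) libraries in 15 of the 56, against 18.2% of all genes tested, and both were below in 6, against 14.4%. The share of human counts differed between the libraries of each kind, and the 21 switched genes differed between the kinds, and their part in these values was not tested. The summed level of the 21 was 463 and 484 CPM in iTeO (ES) and 2.18 and 2.36 CPM in iTeO (iPS), yet only 2 genes passed in all. The spread of a gene was estimated over all groups together, and the 21 also varied within TeO and NCC. Large differences can thus fail to pass, and the absence of a call does not show equal levels.

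**Figure D4:**
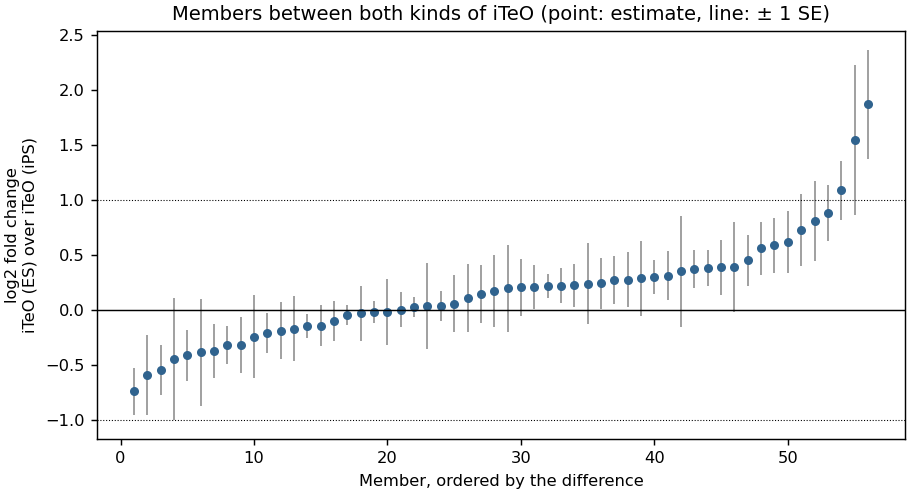
Log2 fold change of iTeO (ES) over iTeO (iPS) (y axis) for the 56 genes, ordered by this difference (x axis), as fitted by edgeR with TMM scaling. Points are estimates and lines 1 SE to either side. The values run from -0.74 to 1.87 with 36 above 0, and none passed the adjusted threshold.

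The gene with the largest difference in favour of iTeO (ES) was ENSGALG00000010036. It had 6.65 and 22.6 CPM in iTeO (ES), 3.97 and 3.89 CPM in iTeO (iPS), 2.33, 2.02 and 3.21 CPM in TeO and 17.4, 17.4 and 15.8 CPM in NCC. Only iTeO (ES) replicate 2 reached the level of NCC, and the iTeO (iPS) libraries were nearer to TeO than to NCC. The means were 9.28 ± 8.97 CPM in iTeO (SD, n = 4), 2.52 ± 0.616 CPM in TeO (SD, n = 3) and 16.9 ± 0.934 CPM in NCC (SD, n = 3). The log2 fold change of iTeO (ES) over iTeO (iPS) was 1.87 (SE 0.49), with an unadjusted p of 0.00415 and an adjusted p of 0.349 by edgeR. With DESeq2 it was 1.89 with an adjusted p of 0.00915. In edgeR it was 2.504 without iTeO (ES) replicate 1, where only the high iTeO (ES) library was left. Without iTeO (ES) replicate 2, again with a single iTeO (ES) library, it was 0.75. Over the alternatives that kept both libraries of each kind, the adjusted p ran from 0.00915 by DESeq2 to 0.470 by edgeR. Between NCC and TeO the fit gave 2.76 (SE 0.69). Between iTeO and TeO it gave 1.69 (SE 0.68) with all 4 iTeO libraries and 0.76 without iTeO (ES) replicate 2. Between iTeO and NCC it gave -1.06 (SE 0.56), and -1.99 without that library.

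In the other direction the largest difference was that of ENSGALG00000016964, which was higher in iTeO (iPS). It had 11.7 and 8.08 CPM in iTeO (ES), 17.9 and 14.9 CPM in iTeO (iPS), 2.24, 2.02 and 2.85 CPM in TeO and 8.18, 10.1 and 8.12 CPM in NCC. Both iTeO (iPS) libraries were above both iTeO (ES) libraries and above all NCC libraries, and the TeO libraries were the lowest. The means were 13.1 ± 4.23 CPM in iTeO (SD, n = 4), 2.37 ± 0.430 CPM in TeO (SD, n = 3) and 8.80 ± 1.12 CPM in NCC (SD, n = 3). The log2 fold change of iTeO (ES) over iTeO (iPS) was -0.74 (SE 0.22), with an unadjusted p of 0.0046 and an adjusted p of 0.349 by edgeR, which did not pass. Over the alternatives that kept both libraries of each kind, the adjusted p ran from 0.276 to 0.462 by edgeR and was 0.317 by DESeq2. Between iTeO and TeO it was 2.26 (SE 0.26), between NCC and TeO 1.90 (SE 0.28), and between iTeO and NCC 0.35 (SE 0.23).

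The order of the 4 iTeO libraries was also counted. The highest of the 4 was iTeO (ES) replicate 2 in 24 of the 56 genes (42.9%), against 26.1% of all genes tested, iTeO (ES) replicate 1 in 15 genes (26.8%, against 31.1%), iTeO (iPS) replicate 2 in 12 (21.4%, against 26.01%) and iTeO (iPS) replicate 1 in 5 (8.93%, against 16.8%). The lowest was iTeO (iPS) replicate 2 in 18 genes (32.1%, against 21.8%), iTeO (iPS) replicate 1 in 16 (28.6%, against 27.5%), iTeO (ES) replicate 1 in 13 (23.2%, against 26.9%) and iTeO (ES) replicate 2 in 9 (16.1%, against 23.4%). With TMM scaling iTeO (ES) replicate 2 was again the highest in 24 genes, against 24.6% of all genes tested. In 2 genes the highest iTeO library was more than 2 times the next, and in both it was iTeO (ES) replicate 2.

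Among the 9 genes that overlap with TeO had removed, single iTeO (ES) libraries stood further from the others. The highest iTeO library was replicate 1 of iTeO (ES) in 4 of the 9, replicate 2 of iTeO (ES) in 4 and replicate 2 of iTeO (iPS) in 1. In 1 gene iTeO (ES) replicate 1 had 15.2 CPM, 29.7 times the next iTeO library, where the other iTeO libraries had 0.204 to 0.512 CPM, TeO 0.259 to 0.445 CPM and NCC 3.45 to 7.13 CPM. In 1 gene iTeO (ES) replicate 2 had 113 CPM, where the other iTeO libraries had 2.69 to 4.48 CPM, TeO 2.16 to 3.03 CPM and NCC 21.7 to 28.1 CPM. In another the same library had 173 CPM, against 7.12 to 12.6 CPM in the other iTeO libraries, 10.2 to 18.2 CPM in TeO and 31.8 to 43.8 CPM in NCC. In 1 more gene it had 7.98 CPM, against 0.855 to 2.69 CPM in the other iTeO libraries. In the former 3 genes the other 3 iTeO libraries were all below 2 times the TeO mean, and the condition on overlap kept them out. Whether the dissected tissue of these libraries differed was not tested.

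Each library was left out in turn and the genes were chosen again from the other 9, so that the left-out library took no part in the choice. The lists held between 50 and 74 genes, and 30 of the 56 genes were in all 10 lists. Leaving out iTeO (ES) replicate 2 lost most, with 44 of the 56 (78.6%) among 50 genes, while leaving out iTeO (iPS) replicate 1 lost 1, with 55 of the 56 among 62 genes. The lists grew most without a TeO library, to 72, 63 and 74 genes without replicates 1 to 3.

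The level of the left-out library was then set against the libraries of the other side, which had taken part in the choice and were low or high in these genes by it, so that the gap to all genes tested is partly set by the choice. A left-out iTeO library was above the highest TeO library in 93.4% to 96.4% of the genes of its list, against 52.4% to 55.1% of all genes tested. A left-out NCC library was above the highest TeO library in 94.9% to 100% of its list, against 35.1% to 36.7% of all genes tested. A left-out TeO library was below all 7 iTeO and NCC libraries in 86.1% to 93.2% of its list, against 18.7% to 23.3%. These shares rest on raw CPM, in which the median log2 ratio of iTeO to TeO over all genes tested was 0.21. The shares that compare iTeO with TeO include this shift. The fold of 2 was met less often. A left-out iTeO library was more than 2 times the TeO mean in 38 of 61, 37 of 50, 42 of 62 and 40 of 55 genes, and a left-out NCC library in 48 of 60, 50 of 59 and 50 of 61. For the lists without a TeO library, the mean of the 7 iTeO and NCC libraries was more than 2 times the left-out library in 49 of 72, 49 of 63 and 57 of 74 genes. The libraries used in the choice had to meet this fold in their means, and the left-out library did not. The share of all genes tested past this fold was not computed. The levels set against the left-out library were low or high by the choice, so these counts describe the lists only.

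**Figure D5:**
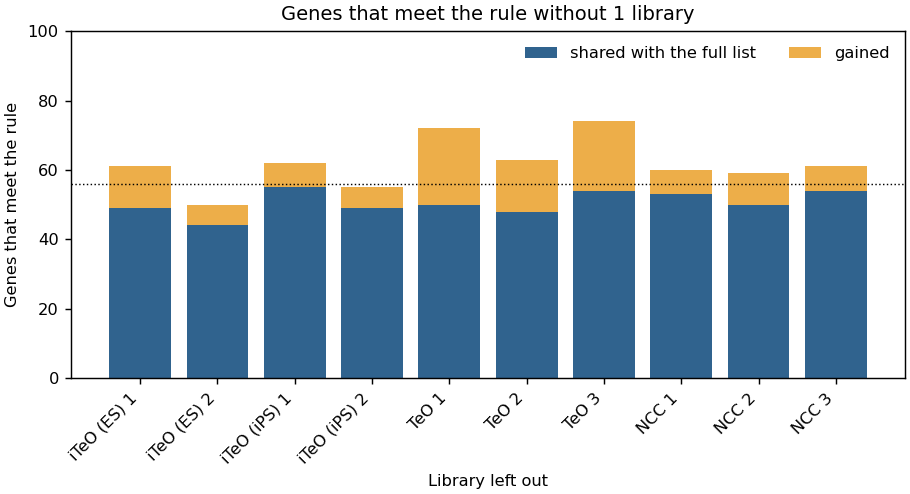
Number of genes that met the limits when 1 library was left out (y axis, from 0), by the library left out (x axis), split into genes shared with the full list of 56 (blue) and genes gained (yellow). The dotted line marks 56. Between 44 and 55 of the 56 were shared, and the lists without a TeO library gained most.

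Of the 56 genes, 8 (14.3%) lay in adjacent rows of the table, in 4 pairs. The share for other lists of 56 genes was not computed, so nothing is read from this one. ENSGALG00000010036 and ENSGALG00000045426 were each in such a pair. The gene in the row next to ENSGALG00000010036 had 1.52 and 7.98 CPM in iTeO (ES), 1.15 and 2.01 CPM in iTeO (iPS), 0.518, 1.01 and 0.802 CPM in TeO and 6.20, 6.10 and 3.79 CPM in NCC. It was high in the same single iTeO library as its neighbour and in NCC. This rests on 78 reads in iTeO (ES) replicate 2, against 9 to 17 in each of the other iTeO libraries. Its log2 fold change of iTeO (ES) over iTeO (iPS) was 1.545 (SE 0.68, adjusted p of edgeR = 0.534), which did not pass. Without iTeO (ES) replicate 1 it was 2.30, with only the high library left in iTeO (ES). The gene in the row next to ENSGALG00000045426 had 193 and 356 CPM in iTeO (ES), 389 and 287 CPM in iTeO (iPS), 87.9, 81.8 and 92.0 CPM in TeO and 248, 248 and 230 CPM in NCC. As in its neighbour, iTeO (ES) replicate 1 was the lowest iTeO library. The means of iTeO, TeO and NCC were 7.996, 3.22 and 8.24 CPM beside 11.9, 5.62 and 18.7 CPM in another pair, and 14.6, 5.17 and 11.1 CPM beside 15.7, 6.68 and 14.3 CPM in the last. The order of rows is that of the annotation as deposited, and the positions of the genes and the strand setting of the counting were not given in the sources used here, so reads of overlapping genes could not be told apart.

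The profile was also set beside genes that were high in NCC and chosen from NCC and TeO alone, with at least 5 CPM in NCC. Of 64 genes more than 8 times higher in NCC than in TeO, 1 was among the 56. The summed level of the other 63, as a share of their NCC mean, was 12.03% and 11.7% in iTeO (ES), 11.5% and 9.71% in iTeO (iPS) and between 7.42% and 7.91% in TeO. The low TeO sums and the distance of TeO from NCC follow from the choice of these genes. Of 148 genes more than 4 times higher in NCC, 7 were among the 56, and the other 141 summed to between 16.8% and 19.0% in iTeO and between 13.9% and 14.6% in TeO. For 24 genes more than 16 times higher in NCC, none of them among the 56, the sums were 4.48% and 2.45% in iTeO (ES), 7.66% and 2.79% in iTeO (iPS) and between 2.25% and 2.63% in TeO, so that iTeO (ES) replicate 2 was within the range of TeO. The ratio limit of 0.5 requires a gene of this last kind to be more than 8 times the TeO mean in iTeO. All these sums rest on raw CPM, in which the median log2 ratio of iTeO to TeO over all genes tested was 0.21. They were not repeated with TMM factors, so the gaps between iTeO and TeO include this shift. The 56 were 0.4% of all genes tested.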

How the data were processed

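RNA of 10 chicken tissue libraries (total RNA, a stranded kit, single-end reads) was analysed. The authors used Trimmomatic for trimming, STAR 2.7.1a for alignment to 1 reference made of the human (GRCh38) and chicken (galGal5) genomes, and featureCounts for counting reads with a unique position, so that reads fitting both genomes equally were lost. The deposited values are these raw counts, without normalization. The strand setting of the counting is not given in the sources used here. Libraries were grouped by their titles.

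CPM over chicken genes, the profile and all summaries were computed in Python 3.11.15. Tests across chicken genes used R 4.3.3 with edgeR 4.0.16 (filterByExpr by tissue, TMM, robust quasi-likelihood fit, quasi-likelihood F test, Benjamini-Hochberg adjustment over the 13999 genes that passed the filter), in 1 fit over all 10 libraries with 3 groups, or with 4 groups where the kinds of iTeO were compared. A call needed an adjusted p under 0.05 and a log2 fold change beyond 1 in either direction. The procedure was run on simulated counts with larger changes than most of those described here. That run does not show how often differences of the size described here would be called. Counts of 7809002 to 11615474 reads per library limit the precision of genes at a few CPM, and intervals cover counting error only. The genes and lists were chosen with earlier results of these data known.

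The genes given by identifier are the one with the largest ratio of the lower of the iTeO and NCC means to the TeO mean, the one with the highest mean of iTeO and NCC, and the one with the largest difference between the kinds of iTeO in each direction. The neighbours in the table and the genes removed for overlap were described after their values were seen. Alternatives were TMM and DESeq2 1.42.0 scaling, other floors and fold limits, overlap allowed, no filter on low counts, the DESeq2 Wald test, a replicate block, the compared groups alone and each library left out. Lists of marker and pathway genes were not analysed here, since no identifier was paired with a symbol, and no sequences are given for the same reason.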

Additional observations from a re-analysis of the deposited data

Results flagged for a closer look

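In a group of 4 libraries, a single library was taken to stand apart when its gap to the nearest other library exceeded Dixon's 95% critical share of the range of the group, which chance gives in about 1 of 20 groups. Of the 56 genes, 7 (12.5%) passed this value in iTeO, against 5.84% of all genes tested. Among the genes whose libraries are given here, ENSGALG00000045426 had 273 CPM in iTeO (ES) replicate 1, below the other iTeO libraries. ENSGALG00000010036 had 22.6 CPM in iTeO (ES) replicate 2, above the others, and the gene in the adjacent row had 7.97 CPM in the same library.

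Human genes were not part of the comparisons. Their share of all counts was 0.371% in the first iTeO (ES) library and 0.299% in the first iTeO (iPS) library, above the 0.123% to 0.137% of the TeO and NCC libraries, which served as the control. The second libraries of both kinds, with 0.129% and 0.124%, were within that range.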

How the results depend on the processing

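The number of genes with the profile depended on the scaling and the fold limit. It was 29 with TMM factors and 29 with DESeq2 size factors (27 of the 56 in each), 319 at a fold limit of 1.5 and 9 at a limit of 3. It ran from 50 to 74 with each library left out. All 9 genes at a limit of 3 were among the 56, and 24 of the 56 were in the TMM list and in all 10 lists that left out a library. A floor of 1 or 5 CPM or allowing overlap (65 genes) moved the count by less than 1.5 times. Between iTeO (ES) and iTeO (iPS), DESeq2 called 1 of the 56, and leaving out a library gave 0 to 2, with 2 different genes called without iTeO (ES) replicate 1 and without iTeO (ES) replicate 2, when the lone iTeO (ES) library is assumed to vary like the other groups. Over all genes tested these fits called 64 and 96 genes, DESeq2 37 and the fit of the iTeO libraries alone 20, against 2. The summed share without the most counted gene was 0.206% in iTeO, 0.0815% in TeO and 0.234% in NCC, and on the TMM scale 0.225% in iTeO, 0.101% in TeO and 0.290% in NCC. No fold change of the 4 genes given by identifier changed sign under the alternatives run, while the order in size of the profile and its reverse did. Same-numbered TeO and NCC libraries did not all deviate together (correlations of 0.327, -0.236 and 0.336). A replicate block, which no label supports as a pairing, called 0 of the 56 between the kinds of iTeO, against 1 gene in all. It called 33 between iTeO and TeO (869 genes in all), 55 between NCC and TeO (1758 in all) and 7 between iTeO and NCC (2334 in all), in either direction. The choice of the 56 used the contrasts between tissues, so nothing is read from these counts. The same-numbered iTeO (ES) and iTeO (iPS) libraries had a correlation of -0.111, and a block with crossed numbers, added after seeing the data, called 0 of the 56 between the kinds and 1 gene in all. The counting intervals overlapped in 28 of the 56 genes, which depends on depth and on the gap between the compared libraries. The choice used these same values and the share over all genes was not computed, so nothing is read from this count.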
